A study of Rattus norvegicus with 5 samples.

Results

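The genes described here encode the cytoskeleton of neurons: Ank2, Ank3, Sptbn4, Dclk1, Dcx, Map2, Mapt, Tubb3, Gap43 and Clasp1. They were chosen by symbol, and 9 of the 10, all but Tubb3, were among the 23553 gene symbols in the deposited lists of DNA regions enriched by an antibody against N6-methyladenine (6mA). Rat genomic DNA was sonicated, enriched with that antibody and sequenced from neural stem cells (NSCs, cell line SCR022), Neurons and Astrocytes, with 1 immunoprecipitated library each. The labels name Neurons and Astrocytes by cell type alone and give no genotype, treatment, time or age for any group. Input libraries without enrichment were samples for NSCs and Neurons. The authors called peaks of each library over its input (3 lists) and regions that differ between the libraries of each pair of cell types (6 lists, 1 per direction). A region was tied to a gene when the files list the symbol as promoter, upstream 2 kb, exon, intron, downstream 2 kb or gene body. With 1 library per cell type no difference could be held against a replicate spread, and no test was made. RNA was not measured, so the cell types could not be checked by their markers. The enrichment rests on 1 antibody, and no second method for 6mA was part of the data.

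As background, ankyrins are adaptors that tie membrane proteins to the spectrin lattice under the membrane. Ankyrin-G, from Ank3, organises the axon initial segment, where the action potential starts, together with beta-IV spectrin, from Sptbn4. Microtubules run through axons and dendrites; tau (Mapt) is known from axons, Map2 from dendrites, and doublecortin (Dcx) from young migrating neurons. N6-methyladenine is abundant in bacterial DNA, and its level in mammalian DNA is debated.

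The immunoprecipitated libraries held 15760246 to 16095308 reads, of which 13785430 to 13930646 mapped uniquely. The 2 inputs held 22329441 and 27936774 reads. Scores are 10 times the −log10 p of the authors' peak caller, with a minimum of 50 in every list. Folds and scores are the authors' own, each from its own list, and are set side by side without comparison. Positions are those in the files, whose genome build no label or header states.

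Peaks over input were listed to 9 of the 10 genes in each cell type. A peak was listed to 39.3% (NSCs), 42.3% (Neurons) and 39.5% (Astrocytes) of the 23154 protein-coding genes of the reference. All of the 10 but Tubb3 are long genes: Ank2, Ank3, Dclk1, Dcx, Map2 and Clasp1 lie in the longest of 10 equal length classes (at least 108 kb), where 87.2%, 87.7% and 87.3% had a peak. Sptbn4, Mapt and Gap43 lie in the class below it, where 76.9%, 80.6% and 77.1% had one. The count of 9 genes is thus near the background of genes as long as these by reference length. In the gene models behind the lists, described further on, Dclk1 spans at most 92.3 kb and Dcx at most 83.4 kb. Both are under the 108 kb floor of their class, so that class may not match them. In all, 65 of 121816 NSC peaks, 86 of 137579 Neuron peaks and 70 of 116091 Astrocyte peaks were listed to the 10 genes. Their median widths were 491, 482.5 and 507.5 bp in that order, where all peaks had 467, 456 and 447 bp. A score of at least 87.4, the median over all peaks of the 3 lists, was reached by 39 of the NSC peaks (60.0%), 49 of the Neuron peaks (57.0%) and 36 of the Astrocyte peaks (51.4%). Of all peaks, 49.6%, 50.6% and 49.7% reached it.

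**Figure D1:**
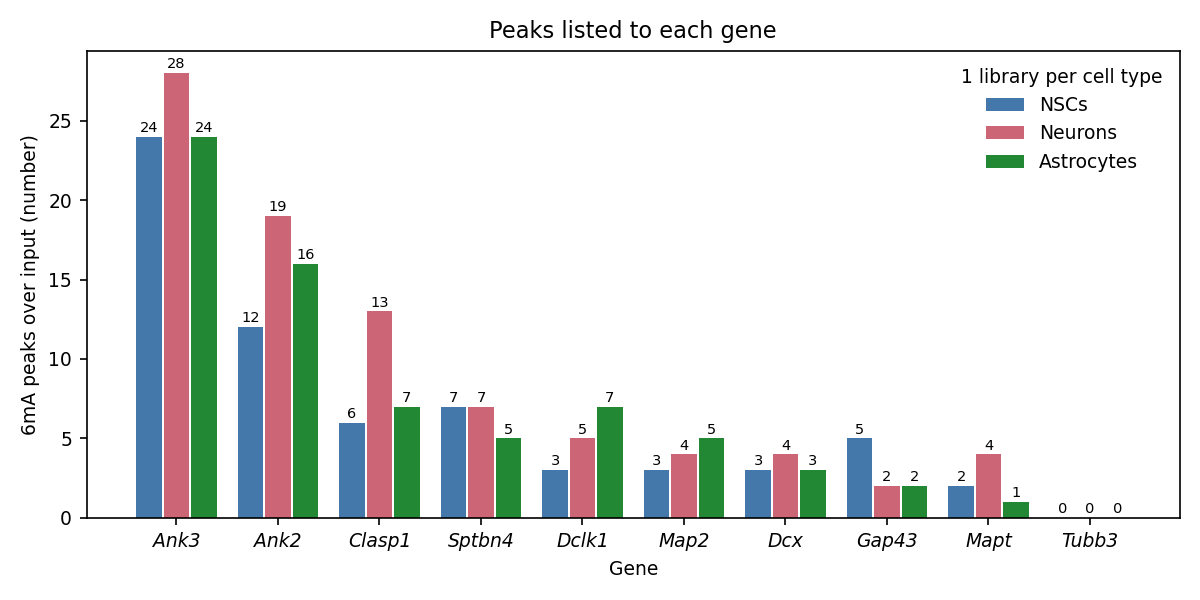
Bars give the number of peaks over input (y axis) listed to each gene (x axis) in NSCs, Neurons and Astrocytes, with 1 library per cell type and no error to draw. Ank3 has the most in each, 24, 28 and 24, and Tubb3 has 0.

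The ankyrin genes held most of the peaks. Ank3 had 24 peaks in NSCs, 28 in Neurons and 24 in Astrocytes. In those cell types 173, 163 and 158 protein-coding genes had more. Ank2, which encodes ankyrin-B, had 12, 19 and 16, and 493, 300 and 305 genes had more. Without Ank3, the NSC count fell from 65 to 41, the Neuron count from 86 to 58 and the Astrocyte count from 70 to 46. Within the longest class, 92.0%, 92.8% and 92.6% of genes had fewer peaks than Ank3, and 76.6%, 85.7% and 85.9% had fewer than Ank2. The median reference length in that class is 186 kb, against 623 kb for Ank3 and 576 kb for Ank2. In the gene models behind the lists Ank3 spans at most 391 kb and Ank2 at most 304 kb.

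Ank3 peaks of high fold recurred at the same places in all 3 cell types. The peak of largest score lay in an intron (chromosome 20, 20314776 to 20316450 in Neurons), with a fold of 26.8 in NSCs, 56.4 in Neurons and 36.9 in Astrocytes. Its scores were 871, 2791 and 1541. The largest Ank3 fold lay in another intronic stretch (20205695 to 20206355 in Neurons), at 40.4 in NSCs, 82.9 in Neurons and 44.8 in Astrocytes. Neither place was in any of the 6 comparison lists. Of 41 places with an Ank3 peak after merging those that overlap by at least 1 bp, 13 were found in all 3 cell types. The longest stretch between neighbouring Ank3 places was 47.9 kb.

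Ank2 showed the same kind of recurrence at fewer places, 7 of 26. The intronic place at 231388525 to 231390140 on chromosome 2 had a fold of 23.3 in NSCs, 26.3 in Neurons and 22.7 in Astrocytes. An intronic place at 231492039 to 231492798 had 33.6, 36.8 and 19.4, and the authors' deposited table listed it as higher in Neurons than in Astrocytes (fold 5.23). A place that touched an Ank2 exon at 231332277 to 231333204 had 9.72 in NSCs, 14.9 in Neurons and 29.1 in Astrocytes and was in no comparison list. A 68.5 kb stretch of Ank2, from 231407703 to 231476195, held no peak over input. The authors' deposited table placed 3 regions higher in NSCs than in Neurons inside that stretch.

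**Figure D2:**
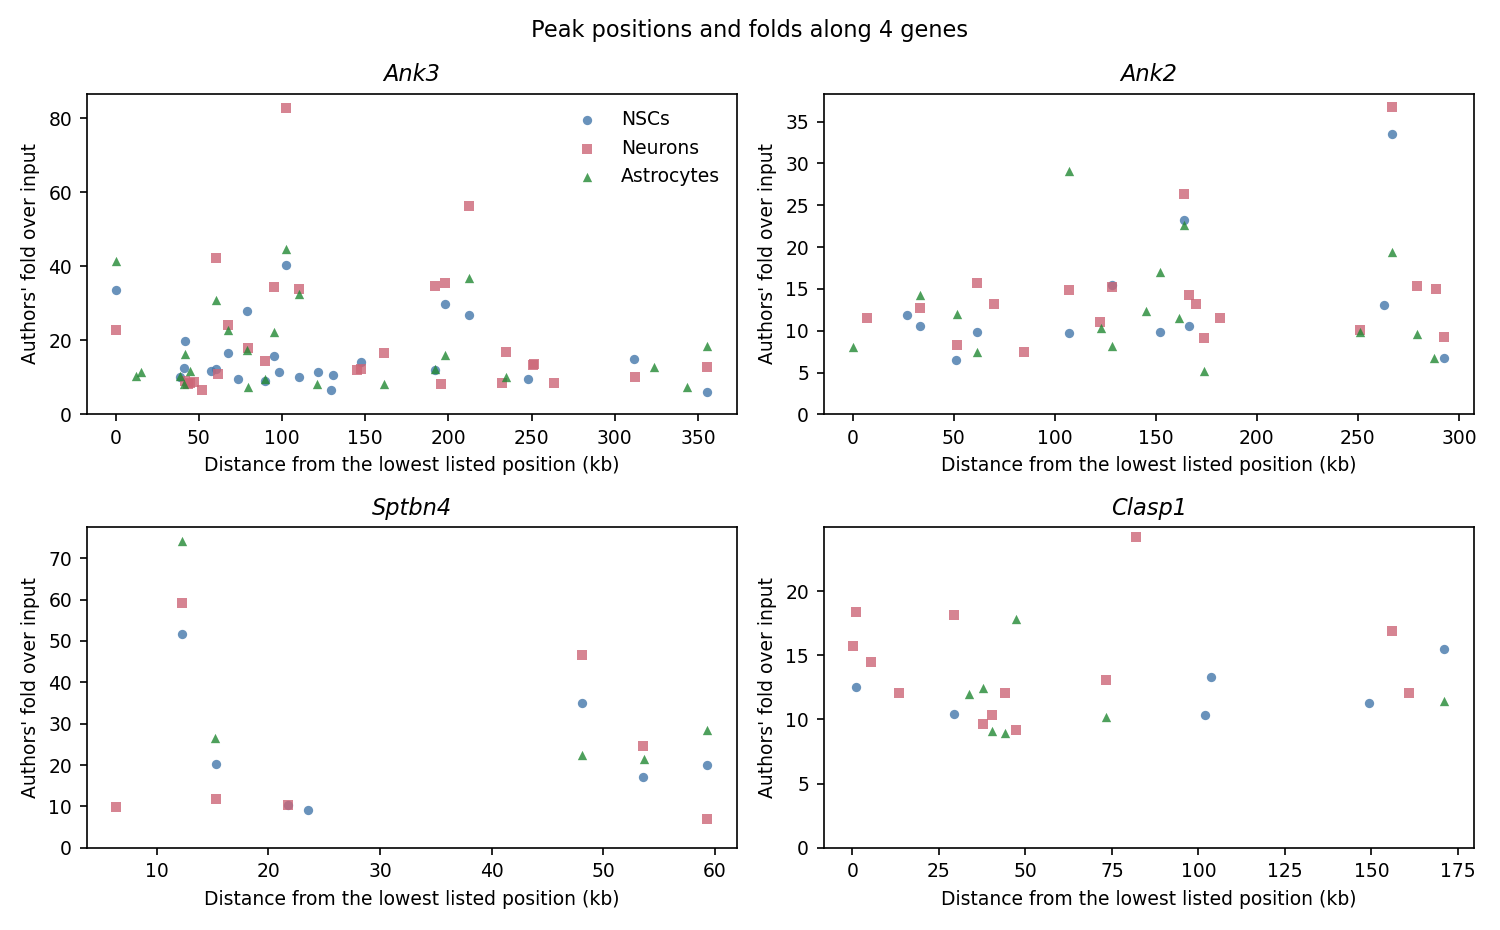
Each point is a peak over input, placed by its distance from the lowest listed position of the gene (x axis, kb) and by the authors' fold over input (y axis, linear), for NSCs (circles), Neurons (squares) and Astrocytes (triangles). In Ank3 and Sptbn4 the points of high fold stand in columns of the 3 cell types, while Clasp1 has no place with all 3.

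Sptbn4 was the most densely marked of the 10 genes by reference length. It is 87.6 kb long and had 7 peaks in NSCs, 7 in Neurons and 5 in Astrocytes, or 7.99, 7.99 and 5.71 per 100 kb. That order depends on the length used: over the largest span that the files allow for each gene, described further on, gene body peaks of Sptbn4 came to 6.89, 6.89 and 4.92 per 100 kb, those of Ank3 to 5.88, 6.91 and 5.88, and those of Dclk1 to 7.58 in Astrocytes. In its length class 93.4%, 91.3% and 83.5% of genes had fewer peaks. All 5 Astrocyte peaks lay at places that also held a peak in NSCs and Neurons. The one of largest fold was intronic (chromosome 1, 84188602 to 84189722 in Astrocytes), with a fold of 51.7 in NSCs, 59.3 in Neurons and 74.2 in Astrocytes. The authors' deposited table listed it as higher in Neurons than in NSCs (fold 4.46). Another, at 84224320 to 84225665 in NSCs, where it touched an exon, had 35.0, 46.6 and 22.3. A place over exon and intron at 84235765 to 84236690 in Astrocytes had 19.9 in NSCs, 7.07 in Neurons and 28.4 in Astrocytes. The authors' deposited table listed that place as higher in Astrocytes than in Neurons (fold 8.41) and higher in NSCs than in Neurons (fold 8.29).

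Clasp1 encodes a protein that follows growing microtubule plus ends. It had 6 peaks in NSCs, 13 in Neurons and 7 in Astrocytes, and none of its 18 places was found in all 3. Neurons and Astrocytes shared 5 places without an NSC peak, and 6 places had a peak in Neurons alone. Its folds ranged from 10.3 to 15.5 in NSCs, 9.20 to 24.2 in Neurons and 8.91 to 17.8 in Astrocytes. The largest was an intronic Neuron peak (chromosome 13, 34454605 to 34455207, fold 24.2) that had no counterpart in the other cell types. The authors' deposited table gave part of it as higher in Neurons than in Astrocytes (fold 27.3), the largest fold of the 10 genes in that list. It gave the whole peak as higher in Neurons than in NSCs (fold 13.2).

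Dclk1 encodes a kinase with doublecortin domains. It had 3 peaks in NSCs, 5 in Neurons and 7 in Astrocytes on chromosome 2. The 3 NSC peaks each overlapped a peak of both other cell types. The one of largest fold, intronic at 144893714 to 144894426 in Neurons, had a fold of 37.2 in NSCs, 51.9 in Neurons and 49.3 in Astrocytes. Another, at 144897844 to 144898662 in NSCs, touched an exon there and had 28.6, 17.7 and 14.7. Of the others, the intronic place at 144912763 to 144913401 in Neurons had a fold of 17.8 in Neurons and 17.1 in Astrocytes and no NSC peak. In the authors' deposited table it was higher in Neurons than in NSCs (fold 5.35).

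Dcx, an X-linked gene, had 3 peaks in NSCs, 4 in Neurons and 3 in Astrocytes. None of its 6 places was found in all 3 cell types. Neurons and Astrocytes shared 3 places without an NSC peak: an exon (115104596 to 115104872 in Neurons, fold 15.3 in each), an intron (115163796 to 115164165, folds 24.1 and 14.7) and the promoter (115176297 to 115176703, folds 13.3 and 15.3). The authors' deposited table listed the exon as higher in Neurons than in NSCs (fold 11.0). The authors' deposited table listed the intron as higher in Neurons than in NSCs (fold 14.7) and in Astrocytes than in NSCs (fold 12.9). The promoter was in no comparison list. NSCs alone had an exonic peak (115105400 to 115105648, fold 11.3) and an intronic peak (115115232 to 115115489, fold 13.2). In the authors' deposited table the exonic peak was higher in NSCs than in Neurons (fold 11.1) and than in Astrocytes (fold 10.2). The intronic peak was also higher in NSCs than in Neurons (fold 11.2) and than in Astrocytes (fold 12.0) in the authors' deposited table.

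Map2 had 3 peaks in NSCs, 4 in Neurons and 5 in Astrocytes, and its 3 NSC places were found in all 3 cell types. An exonic place (chromosome 9, 73461013 to 73461499 in Neurons) had a fold of 15.7 in NSCs, 24.1 in Neurons and 14.9 in Astrocytes. The authors' deposited table listed it as higher in NSCs than in Astrocytes (fold 5.52). Another region, at an intronic Astrocyte peak (73425615 to 73425982), was higher in Astrocytes than in Neurons with a fold of 9.10 in the authors' deposited table. Those were the 2 Map2 entries among the 6 lists.

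Mapt had 2 peaks in NSCs, 4 in Neurons and 1 in Astrocytes. An intronic place shared by all 3 (chromosome 10, 92298855 to 92299567 in Neurons), which the files also list to LOC100912629, had a fold of 26.9 in NSCs, 40.8 in Neurons and 32.9 in Astrocytes. Neurons alone had 2 further intronic peaks, at 92320372 to 92320790 (fold 11.7) and 92361104 to 92361701 (fold 11.8). In the authors' deposited table these were higher in Neurons than in NSCs, with folds of 14.6 and 16.6. Within the latter, the authors' deposited table also had a region higher in Astrocytes than in NSCs (fold 9.69), although no Astrocyte peak over input was listed there. The former was also higher in Neurons than in Astrocytes (fold 6.40) in the authors' deposited table.

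Gap43, a protein of growth cones, had 5 peaks in NSCs, 2 in Neurons and 2 in Astrocytes. It was the 1 gene of the 10 with its largest count in NSCs alone. An intronic place at 58653081 to 58653513 on chromosome 11 in Neurons was shared by all 3, with a fold of 16.3 in NSCs, 13.3 in Neurons and 15.3 in Astrocytes. The other 4 NSC peaks were found in no other cell type, among them the promoter peak (58623249 to 58623822, fold 15.0). The authors' deposited table listed the promoter as higher in NSCs than in Neurons and than in Astrocytes, with a fold of 11.2 in each. An intronic NSC peak at 58685947 to 58686324 (fold 14.7) was higher in NSCs than in Neurons (fold 16.2) and than in Astrocytes (fold 21.3) in the authors' deposited table.

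Tubb3, the neuronal beta-III tubulin gene, was listed in none of the 9 lists. It is 9.05 kb long, and in its length class 19.6% (NSCs), 24.1% (Neurons) and 20.5% (Astrocytes) of genes had a peak. In the comparison lists of the authors' deposited table, genes of that class had a region in 9.03% of cases for Neurons over NSCs, 7.47% for NSCs over Neurons, 7.34% for Astrocytes over NSCs, 8.16% for NSCs over Astrocytes, 5.7% for Astrocytes over Neurons and 11.2% for Neurons over Astrocytes. The lists hold regions of score 50 and above, so weaker enrichment at Tubb3 was not detectable here.

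**Figure D3:**
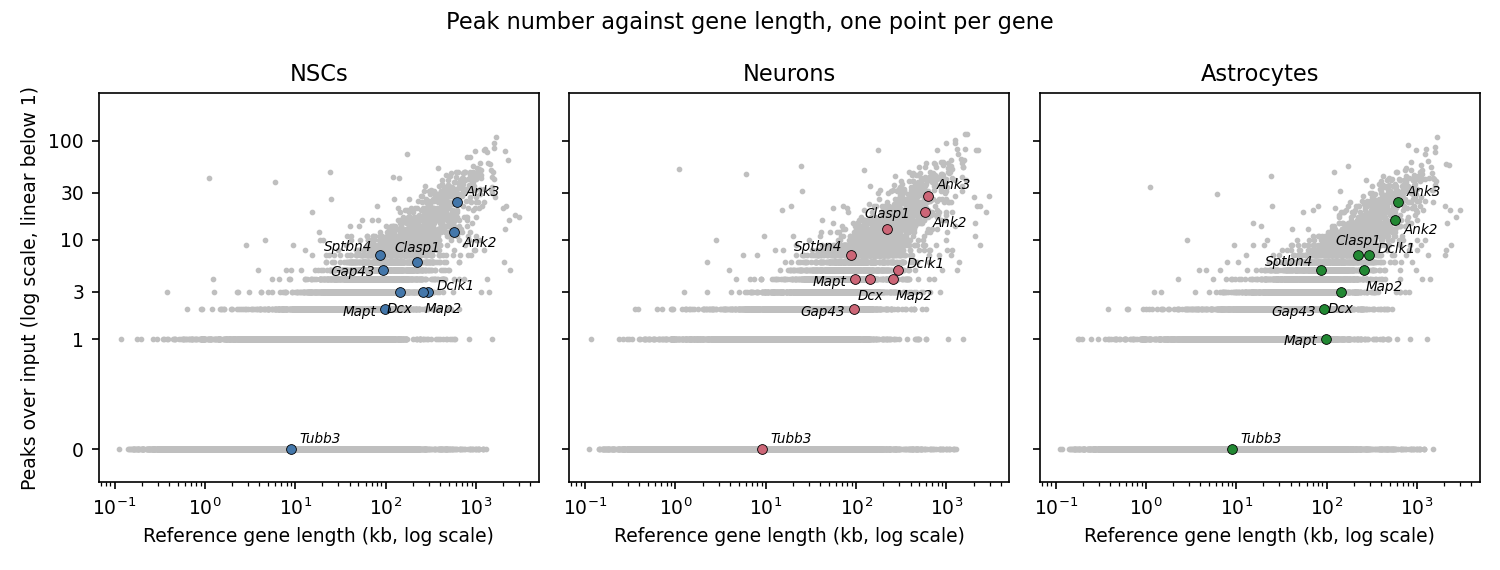
Each panel plots the peaks over input (y axis, logarithmic above 1 and linear below) of every protein-coding gene in grey against its reference length (x axis, kb, log scale), with the 10 genes coloured and named. The 10 genes lie within the grey cloud, from Tubb3 with 0 peaks to Ank3 with 24, 28 and 24.

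Per unit length, the position of the 10 genes against other genes turned on the length used. By the lengths of the GRCr8 reference they held 2.70 peaks per 100 kb in NSCs (Poisson interval 2.09 to 3.45), 3.58 in Neurons (2.86 to 4.42) and 2.91 in Astrocytes (2.27 to 3.68). The longest class of genes, pooled, held 3.19, 3.64 and 3.10. The files use other gene models, and for 5 genes these are shorter. Ank2 spans at most 304 kb between the nearest regions not listed to it, against 576 kb in the reference. The largest possible span was 391 kb for Ank3 (reference 623), 92.3 kb for Dclk1 (294), 143 kb for Map2 (259) and 83.4 kb for Dcx (143). Over these largest spans, a choice made after seeing the data, gene bodies of the 9 genes with a peak held 3.92 peaks per 100 kb in NSCs, 5.22 in Neurons and 4.23 in Astrocytes. In the same measure 4058 long genes with any gene body region, pooled, held 3.77, 4.30 and 3.67. These spans are upper limits, and 6, 5 and 5 of the 9 genes lay above the median gene. By reference length all 3 backgrounds lay inside the intervals, so by that measure the density of the 10 genes was not separable from that of long genes. Over the largest spans the 3 densities lay above the background, and no interval was computed there. The side of the background thus changed with the length used. The intervals treat neighbouring peaks of a gene as independent.

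Most peaks were intronic. Peaks counted as intronic listed none of the 10 genes as promoter, upstream 2 kb, exon or downstream 2 kb. They made up 56 of 65 peaks in NSCs, 80 of 86 in Neurons and 61 of 70 in Astrocytes. These shares were 86.2% (75.3 to 93.5), 93.0% (85.4 to 97.4) and 87.1% (77.0 to 93.9), with exact Clopper-Pearson 95% intervals, where all peaks listed to any gene gave 81.0%, 80.2% and 80.9%. That background lay inside the interval in NSCs and Astrocytes and below it in Neurons. It was counted more strictly, leaving out peaks with any gene in those other classes. Of the peaks at the 10 genes, 5 in NSCs, 4 in Neurons and 2 in Astrocytes list another gene as well. The background also pools genes of every length, and neighbouring peaks of a gene are not independent. Whether the Neuron share differs from that of long genes was not tested. An exon was touched by 7, 4 and 7 peaks (10.8%, 4.65% and 10.0%), where all peaks listed to a gene gave 7.36%, 7.91% and 7.45%, inside the counting intervals. A promoter held 2 peaks in each cell type, or 3.08% (0.375 to 10.7), 2.33% (0.283 to 8.15) and 2.86% (0.348 to 9.94). All peaks listed to a gene gave 7.84%, 8.29% and 7.79%, inside the interval in NSCs and Astrocytes and just above it in Neurons. This background too was not matched on length. Beside the exonic places above, Neurons had a peak at a Clasp1 exon (34528803 to 34529134, fold 16.9) and Astrocytes at an Ank2 exon (231225563 to 231225937, fold 8.04), neither of them with a peak in another cell type or a comparison region. Map2 had an exonic peak in Astrocytes alone (73446543 to 73446827, fold 10.2) and an exonic place at 73453492 to 73453945 in NSCs with folds of 10.0, 11.9 and 11.4 in NSCs, Neurons and Astrocytes. The authors' deposited table also held exonic regions away from any peak over input, at Sptbn4 (84250270 to 84250906, higher in NSCs than in Neurons, fold 6.60) and Dclk1 (144935034 to 144935406, higher in Astrocytes than in NSCs, fold 8.50). No peak lay in a CpG island or in the 2 kb downstream of a gene, and 1 Neuron peak, in an Sptbn4 intron, lay in a CpG island shore. The share of all peaks in these classes was not counted, so these values stand without a background.

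Promoter peaks were found at Ank3, Dcx and Gap43. The Ank3 promoter had a peak in all 3 cell types (20103502 to 20104223 in Neurons), with a fold of 33.5 in NSCs, 22.8 in Neurons and 41.4 in Astrocytes. It was in none of the 6 comparison lists. The Dcx promoter had a peak in Neurons and Astrocytes, and the Gap43 promoter in NSCs. RefSeq gives promoter windows on GRCr8, 250 bases before to 50 after a gene's start, for 8 of the 10 genes, all but Mapt and Gap43. Those of Ank3 and Dcx, genes with a promoter peak in the files, and of Tubb3, with no region, are shown for their base composition, with the 50 bases from the start on in capitals. Whether a window overlaps the peak was not determined, since the builds could not be matched. The capitals of the Ank3 window open with ATG, so its start may be a coding start. Whether the bases before it are promoter is then not known. For Ank3 it is not known whether both stand for the same start: in the files the promoter peak lies below the lowest Ank3 intron region (20115581), the layout of a plus-strand gene, while the RefSeq window is on the minus strand.
Ank3, GRCr8, chr20:18929128-18929427, minus strand: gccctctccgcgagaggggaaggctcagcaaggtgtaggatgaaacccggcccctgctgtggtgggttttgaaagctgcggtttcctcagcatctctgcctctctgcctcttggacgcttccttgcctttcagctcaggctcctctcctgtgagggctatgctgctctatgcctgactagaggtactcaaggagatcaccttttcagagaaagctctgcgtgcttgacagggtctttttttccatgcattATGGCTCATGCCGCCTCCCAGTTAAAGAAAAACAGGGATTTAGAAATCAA
Dcx, GRCr8, chrX:112304112-112304411, minus strand: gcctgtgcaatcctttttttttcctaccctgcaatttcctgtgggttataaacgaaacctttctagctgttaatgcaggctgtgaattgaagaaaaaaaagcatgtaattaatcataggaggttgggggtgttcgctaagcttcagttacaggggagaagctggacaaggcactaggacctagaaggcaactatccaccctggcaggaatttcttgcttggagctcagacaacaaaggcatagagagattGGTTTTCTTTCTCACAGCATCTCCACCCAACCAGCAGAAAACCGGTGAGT
Tubb3, GRCr8, chr19:68365437-68365736, plus strand: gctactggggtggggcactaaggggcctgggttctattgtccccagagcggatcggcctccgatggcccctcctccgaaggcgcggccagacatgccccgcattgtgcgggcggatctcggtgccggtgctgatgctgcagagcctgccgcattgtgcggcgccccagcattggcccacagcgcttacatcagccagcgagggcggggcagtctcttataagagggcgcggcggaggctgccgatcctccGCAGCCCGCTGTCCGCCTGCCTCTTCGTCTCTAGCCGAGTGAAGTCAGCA
Adenine, the base that 6mA modifies, was counted on the printed strand alone, and adenines of the other strand were left out. It made up 20.0% of the Ank3 window, 28.7% of the Dcx window and 14.3% of the Tubb3 window. The median over 33469 windows was 23.7%. The dinucleotide CG, the same on both strands, occurred 7 times at Ank3, 3 times at Dcx and 26 times at Tubb3, where the median window held 7. The letters GATC, which also read the same on both strands, occurred 1, 0 and 3 times, and 46.9% of all windows held them. A match of letters is a description and marks no site.

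Across the 10 genes, merging gave 123 places with a peak. A peak was present in all 3 cell types at 33 (26.8%), in 2 at 31 and in 1 at 59. Over all 220998 merged places of the genome 23.9% were found in all 3. By gene, the places found in all 3 were 5 of 8 at Sptbn4, 3 of 6 at Map2, 3 of 7 at Dclk1, 13 of 41 at Ank3, 7 of 26 at Ank2, 1 of 4 at Mapt and 1 of 7 at Gap43. They were 0 of 6 at Dcx and 0 of 18 at Clasp1. Places found in all 3 had a median of their largest score of 369, those in 2 had 97.1 and those in 1 had 73.5. The largest of 3 scores tends to exceed a single score. These medians were not computed over all merged places, so the order is not shown to be particular to these genes. The lists end at a score of 50, so a peak in 1 list alone does not show that a cell type lacks enrichment there.

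**Figure D4:**
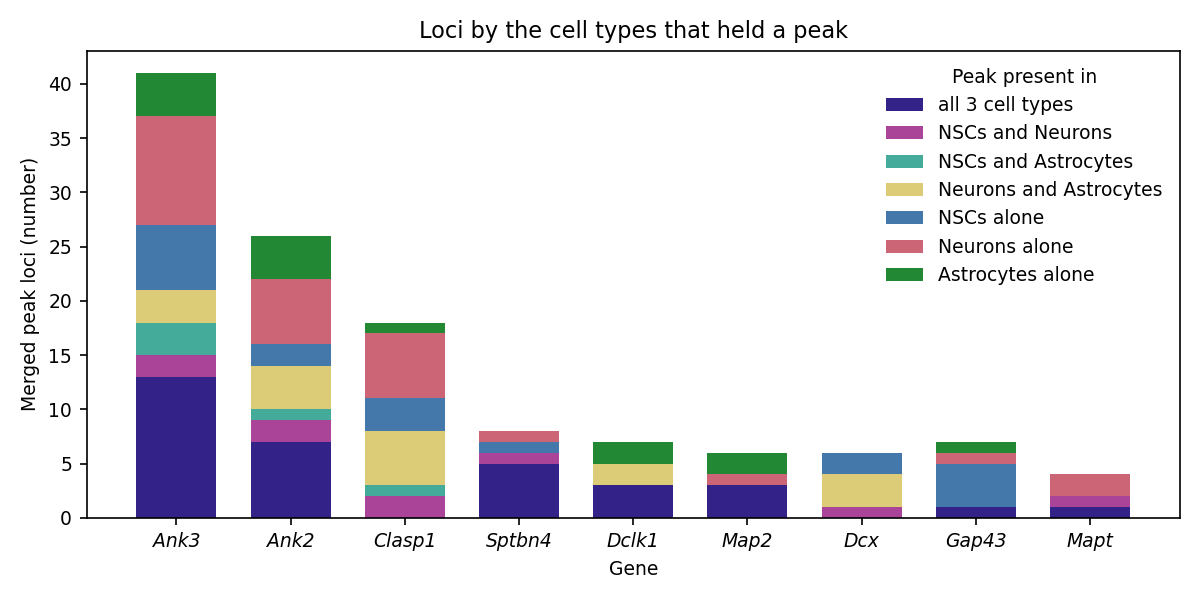
Stacked bars count the merged places with a peak over input (y axis) for each gene (x axis), coloured by the cell types that held a peak there. Sptbn4 has 5 of 8 places in all 3 cell types, and Clasp1 and Dcx have 0.

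Counted by peak, 33 of 65 NSC peaks (50.8%, exact Clopper-Pearson 95% interval 38.1 to 63.4) overlapped peaks of both other cell types. The same held for 33 of 86 in Neurons (38.4%, 28.1 to 49.5) and 34 of 70 in Astrocytes (48.6%, 36.4 to 60.8). All peaks gave 43.6%, 38.6% and 45.8%, inside these intervals. Astrocyte peaks overlapped a Neuron peak in 51 of 70 cases (72.9%, 60.9 to 82.8), where all Astrocyte peaks gave 60.4%, just below the interval. Astrocyte peaks overlapped an NSC peak in 39 cases (55.7%, 43.3 to 67.6), against 56.1% of all. Of NSC peaks, 42 (64.6%, 51.8 to 76.1) overlapped a Neuron peak and 38 (58.5%, 45.6 to 70.6) an Astrocyte peak, against 58.1% and 53.4% of all. Of Neuron peaks, 42 (48.8%, 37.9 to 59.9) overlapped an NSC peak and 50 (58.1%, 47.0 to 68.7) an Astrocyte peak, against 51.5% and 50.9% of all. These intervals cover counting error only, and neighbouring peaks of a gene are not independent.

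The first comparison set Neurons against NSCs, the cells that neurogenesis starts from. For it, the authors' deposited table gave 19 regions higher in Neurons, in 7 of the 10 genes (background 23.2% of all protein-coding genes, 72.7% in the longest class and 48.3% in the next), and 26 higher in NSCs, also in 7 genes (20.5%, 66.2% and 41.6%). Higher in Neurons thus made up 42.2% of the regions at these genes (27.7 to 57.8), against 53.8% of all regions of the 2 lists. Clasp1 had 8 that favoured Neurons and 3 that favoured NSCs in the authors' deposited table. Without Clasp1, 11 of the 19 were left. The balance depended on the score. Among regions with a score of at least 62.4 the authors' deposited table held 11 that favoured Neurons and 8 that favoured NSCs. Neurons thus made up 57.9%. That score was reached by 53.9% of all regions higher in Neurons and 47.2% of all regions higher in NSCs. The share for Neurons thus rises over all regions too, to a value not computed here. At these genes the share was 48.3% among regions with a fold of at least 9.53. It was 32.4% without Clasp1 and 51.6% without Ank2 and Ank3, so neither direction held throughout. Ank2 had 1 higher in Neurons and 6 higher in NSCs, Sptbn4 1 and 5, Ank3 2 and 5, and Gap43 0 and 3 in the authors' deposited table. Mapt had 3 and 1, Dclk1 2 and 0, Dcx 2 and 3, and Map2 and Tubb3 had none in either direction. Of the 6 Ank2 regions higher in NSCs, 1 overlapped an NSC peak over input.

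For Astrocytes against NSCs, the authors' deposited table gave 16 regions higher in Astrocytes, in 7 of the 10 genes (18.6% of all genes, 63.2% and 38.1% of the 2 longest classes), and 14 higher in NSCs, in 6 genes (22.3%, 70.6% and 45.8%). The share higher in Astrocytes was 53.3% (34.3 to 71.7), against 40.3% of all regions, and 48.1% without Clasp1. Ank2 had 4 higher in Astrocytes and 1 higher in NSCs in the authors' deposited table, Ank3 4 and 5, Clasp1 3 and 0, Dclk1 2 and 0, Dcx 1 and 3, Gap43 1 and 3, Mapt 1 and 1, and Map2 0 and 1. Sptbn4 and Tubb3 had none. The largest fold for Astrocytes was at a Clasp1 intron (34420271 to 34420673, fold 15.0), where the authors' deposited table also had Neurons higher than NSCs (fold 8.52).

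Between Astrocytes and Neurons, the authors' deposited table gave 9 regions higher in Astrocytes, in 5 of the 10 genes (15.3% of all genes, 54.8% and 31.4% of the 2 longest classes). It gave 24 higher in Neurons, also in 5 genes (25.6%, 75.3% and 52.3%). The share higher in Astrocytes was 27.3% (13.3 to 45.5), near the 29.5% of all regions. Ank3 had 2 higher in Astrocytes and 9 higher in Neurons in the authors' deposited table, Clasp1 0 and 6, Ank2 3 and 5, Mapt 0 and 3, Sptbn4 2 and 0, Dclk1 1 and 1, and Map2 1 and 0. Dcx, Gap43 and Tubb3 had none. The largest Ank3 folds were 12.8 for Astrocytes (20118364 to 20118795) and 11.7 for Neurons (20449353 to 20449681) in the authors' deposited table.

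**Figure D5:**
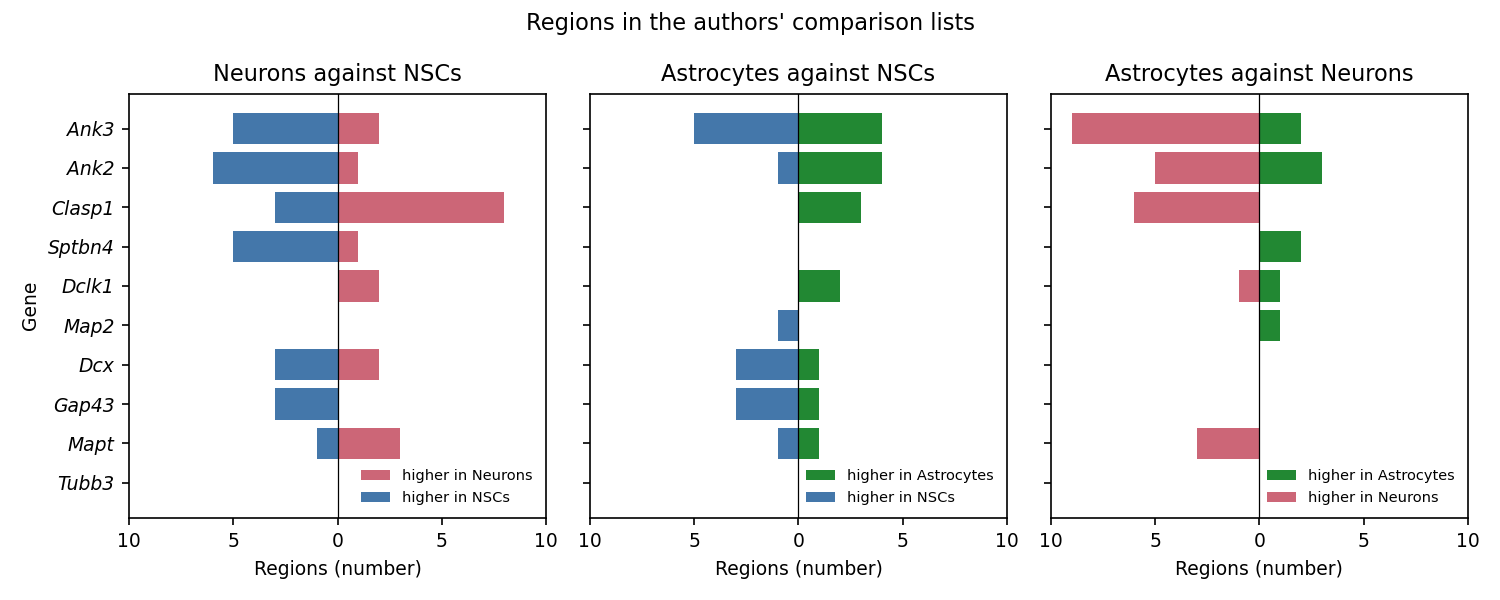
For each pair of cell types, bars give the number of regions (x axis) at each gene (y axis) in the authors' comparison lists, to the right for the cell type named first and to the left for the other. Clasp1 reaches 8 regions higher in Neurons than in NSCs, and Ank3 9 higher in Neurons than in Astrocytes.

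The 3 comparisons share libraries, so their values stand side by side and are not independent. Some regions of the comparison lists lay outside the peaks over input of the library that was higher. Such a peak was overlapped by 15 of 19 regions for Neurons over NSCs, 15 of 26 for NSCs over Neurons, 11 of 16 for Astrocytes over NSCs, 12 of 14 for NSCs over Astrocytes, 7 of 9 for Astrocytes over Neurons and 16 of 24 for Neurons over Astrocytes. Over all regions the shares were 84.3%, 74.3%, 80.2%, 76.6%, 78.1% and 76.6%. Of the 33 places found in all 3 cell types, 9 touched a comparison region, as did 13 of 31 in 2 and 37 of 59 in 1. Over the whole genome these shares were 24.1%, 44.8% and 51.8%.

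Related genes of the cytoskeleton, 71 in 5 lists, were counted in the same lists, and 40 had a peak in NSCs, 44 in Neurons and 42 in Astrocytes. These were 56.3%, 62.0% and 59.2%, where all protein-coding genes gave 39.3%, 42.3% and 39.5%. The share rises with length: the longest class gave 87.2%, 87.7% and 87.3%, and the class of Tubb3 19.6%, 24.1% and 20.5%. The counts per list below were not matched on length. Among 16 further ankyrin, spectrin and initial segment genes (median length 101 kb), 14 had a peak in NSCs, 14 in Neurons and 13 in Astrocytes. The most were at the potassium channel gene Kcnq3 (10, 10 and 9), Nfasc, an adhesion protein that binds ankyrin-G (5, 11 and 12), and Ank1 (4, 9 and 6). Of 23 microtubule-associated and plus-end genes, 14, 16 and 14 had a peak, with Mapre2, a plus-end protein gene, at 42, 35 and 31, Map7 at 6, 8 and 7, and Map1b at 6, 4 and 5. Mapre2 stood apart from genes of its length: at 141 kb it held 29.8, 24.9 and 22 peaks per 100 kb, and 2 of 2315 genes in the longest class were denser in each cell type. The cause was not tested, so its counts are uncertain. Of 8 doublecortin and lissencephaly genes, 4, 6 and 6 had one, led by Dcdc2 (9, 11 and 9), Dclk2 (8, 12 and 7) and Dclk3 (5, 5 and 6). Of 14 neurofilament and growth cone genes, 7 had one in each cell type, led by Cap2 (9, 12 and 9), Dpysl2 (5, 6 and 3) and Dpysl5 (3, 5 and 2). Of 10 tubulin genes, which are short (median 4.42 kb), 2 had a peak in Astrocytes and 1 in either of the others. Tubb5 had 1 in each cell type and Tubb6 1 in Astrocytes, while Tuba1a, like Tubb3, had 0.

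In the comparison lists, shares of the 71 related genes stand beside those of all protein-coding genes, without matching on length. The related genes had 59 regions higher in Neurons than in NSCs, in 31 genes (43.7%), and 56 higher in NSCs, in 30 genes (42.3%), in the authors' deposited table, where all genes gave 23.2% and 20.5%. They had 38 higher in Astrocytes than in NSCs, in 25 genes (35.2%, all genes 18.6%), and 66 higher in NSCs, in 32 genes (45.1%, all genes 22.3%), in the authors' deposited table. Between Astrocytes and Neurons they had 29 regions higher in Astrocytes, in 19 genes (26.8%, all genes 15.3%), and 75 higher in Neurons, in 29 genes (40.8%, all genes 25.6%), in the authors' deposited table. The share of regions higher in the cell type named first was 51.3% for Neurons against NSCs, 36.5% for Astrocytes against NSCs and 27.9% for Astrocytes against Neurons, near the 53.8%, 40.3% and 29.5% of all regions. Without Mapre2 these shares were 53.6%, 37.9% and 28.1%.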

How the data were processed

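DNA enriched with a 6mA antibody was sequenced from 3 cell types, 1 library each, grouped by title. BWA was the aligner, per the submitters' processing notes, without a version. No source used here names the genome build, the annotation, the filters or the peak caller's version, and peak names in the files have the style of MACS. Read numbers are deposited as a count per library, and the deposited mapping rates are a percent of all reads. The authors' score is 10 times the −log10 p of a region. The authors' fold is the ratio of enrichment in a library over its input, or over another library in the 6 comparison lists. The astrocyte input has 1 row in the mapping summary and no sample of its own, and was not used here, although the authors' Astrocyte peaks are named as called over it.

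Peaks were taken unchanged, leaving out 6 blank lines. Symbols were split at commas and matched exactly, and regions overlapped when they shared at least 1 bp. Gene lengths and promoter windows came from RefSeq (GRCr8), matched by symbol for all 10 genes and all 71 related genes. Its coordinates were not set against the files'. The 23154 protein-coding genes were ranked into 10 length classes. Intervals are exact at 95% (Clopper-Pearson for shares, Poisson for counts per length) and cover counting error only. Python 3.11.15, pandas 2.3.3, NumPy 2.4.6, SciPy 1.17.1 and matplotlib 3.10.9 were used, and the overlap functions were tested on simulated data. With 1 library per cell type, no test was made. The rule for naming took all 10 genes, their region of largest fold per list, their regions in promoters or exons, and the 3 genes with the most peaks in each related list. Other loci named were chosen after their values were seen, mainly because all 3 cell types held a peak there. Members and lists were chosen with earlier results of these data known. The authors' GO and KEGG tables were not used here. Alternatives were a stricter score, a stricter fold, gene bodies only, regions listed to 1 gene, a reciprocal overlap of 50%, leaving out the gene with the most regions and, added after seeing the data, leaving out other genes, using another gene length and taking the balance of each comparison at the stricter score and fold.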

Additional observations from a re-analysis of the deposited data

How the results depend on the processing

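No paired analysis was possible because each cell type had 1 library and no test was made. Of 138 alternative values, 105 stayed within 1.5 times the count or inside the interval, and 33 moved. The 105 include the densities over the largest gene spans, 3.92 (NSCs), 5.22 (Neurons) and 4.23 (Astrocytes) per 100 kb. These stayed within 1.5 times but lay above the Poisson intervals by reference length, and they changed the side of the background. Counting gene bodies alone (21 values), leaving out regions that list another gene (21) and a reciprocal overlap of 50% (9) moved none. Peaks with a score of at least 87.4 numbered 39 in NSCs, 49 in Neurons and 36 in Astrocytes, or 1.62, 2.04 and 1.5 per 100 kb. Peaks with a fold of at least 12.1 numbered 37, 51 and 37, or 1.54, 2.12 and 1.54 per 100 kb. Without Ank3, 41 NSC peaks, 58 Neuron peaks and 46 Astrocyte peaks were left, and of these the Neuron count stayed within 1.5 times.

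In the authors' deposited table, a score of at least 62.4 left 11 regions for Neurons over NSCs, 8 for NSCs over Neurons, 6 for Astrocytes over NSCs, 5 (in 3 genes) for NSCs over Astrocytes and 10 for Neurons over Astrocytes. A fold of at least 9.53 left 15 for NSCs over Neurons, 7 (in 3 genes) for NSCs over Astrocytes, 3 (in 2 genes) for Astrocytes over Neurons and 9 for Neurons over Astrocytes. Without Ank3, 9 regions were left for NSCs over Astrocytes and 15 for Neurons over Astrocytes, and without Clasp1, 11 for Neurons over NSCs. With the stricter score in all lists, Astrocyte peaks at the 10 genes overlapped NSC peaks in 69.4%, Neuron peaks in 83.3% and both in 66.7% of cases. The shares of all Astrocyte peaks at that score were not computed. Those given above for all peaks are without a stricter score and are no background here. The fewer regions left account for the lower counts by construction, and the cause of the higher shares was not tested. Other choices for the share higher in Neurons than in NSCs were added after seeing the data. It was 32.4% without Clasp1, 51.6% without Ank2 and Ank3, 57.9% at the stricter score and 48.3% at the stricter fold. In the main count it was 42.2%, so its side of 50% changed. All regions of the 2 lists gave 53.8% without a stricter score or fold, and only the 57.9% lay above that. The share of all regions at the stricter score was not computed. Depth was similar in the 3 enriched libraries, and enrichment under a score of 50 cannot be seen in the lists.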
